A study of Mus musculus with 4 samples.

Results

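Ovarian macrophages were taken from single-cell RNA sequencing of whole ovaries as the barcodes that carried the transcripts of complement component C1q and of other myeloid genes. A barcode, which stands for 1 captured cell, had to hold at least 500 genes, over 1000 UMIs (unique molecular identifiers, of which each stands for 1 RNA molecule) and under 10% mitochondrial UMIs. At least 4 of the 8 genes C1qa, C1qb, C1qc, Ctss, Ms4a7, Trem2, Cybb and Tyrobp had to be detected, with at least 3 UMIs of the C1q genes. Barcodes with 10 or more UMIs of the granulosa cell genes Inhba and Amh per 10000 UMIs, or with 2 or more of Flt1, Cldn5, Dcn, Lum and Cyp17a1 detected, were left out. This gave 1168 macrophages among 47782 barcodes that passed the depth and mitochondrial filters, out of 57109 barcodes in all.

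The mice were 8-week-old females of 1 litter. The 2 control libraries came from Fosl2flox/flox mice (Fosl2F/F), and 2 libraries came from Cyp19a1-Cre; Fosl2flox/flox mice (Fosl2cKO), so both groups carried the floxed allele of Fosl2, a gene of the AP-1 transcription factor family. The Cyp19a1 promoter directs Cre recombinase to granulosa cells, so by design the gene was not targeted in macrophages, and any difference between macrophages of the groups concerns cells that share an ovary with the targeted cells. Each library was taken as 1 replicate (n = 2 per group), and p-values measure the spread between these libraries.

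Macrophages of the ovary take up dying granulosa and luteal cells, present antigen on MHC class II molecules and release chemokines, growth factors and matrix enzymes. C1q marks dead cells and immune complexes for uptake, TREM2 senses lipids and cell debris, and TYROBP passes the signal of TREM2 into the cell. Macrophages that digest lipid-rich debris are known to raise genes such as Gpnmb, Fabp5 and Lpl.

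The C1q genes lie side by side on chromosome 4 within 18675 bases (build GRCm38, minus strand), with C1qb at chr4:136880129-136886187, C1qc at chr4:136889804-136893065 and C1qa at chr4:136895917-136898803. Trem2 lies at chr17:48346401-48354147 on the plus strand. The promoter windows of the marker genes that were found in the RefSeq table (GRCm38.p6, 250 bases before to 50 bases after the start) are printed 5′ to 3′ on the strand of the gene, because these genes chose the cells. Capitals mark GAGGAA, a core bound by the myeloid factor PU.1, read on either strand, and TGANTCA, where N is any base. The latter is a loose form of the AP-1 site, which has C or G at N. The table held no entry for C1qa.
C1qb, chr4:136886151-136886450, minus strand: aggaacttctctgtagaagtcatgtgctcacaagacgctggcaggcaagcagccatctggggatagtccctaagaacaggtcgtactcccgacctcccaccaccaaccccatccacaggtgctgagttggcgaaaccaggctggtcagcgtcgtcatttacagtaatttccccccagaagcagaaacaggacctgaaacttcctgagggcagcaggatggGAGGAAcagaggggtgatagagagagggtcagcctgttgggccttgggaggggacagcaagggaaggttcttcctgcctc
C1qc, chr4:136892865-136893164, minus strand: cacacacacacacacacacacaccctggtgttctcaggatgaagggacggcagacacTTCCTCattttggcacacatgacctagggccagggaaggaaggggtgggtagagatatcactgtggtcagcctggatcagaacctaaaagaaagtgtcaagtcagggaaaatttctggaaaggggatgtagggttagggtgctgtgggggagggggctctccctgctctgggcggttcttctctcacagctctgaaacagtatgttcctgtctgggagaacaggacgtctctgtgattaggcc
Trem2, chr17:48346151-48346450, plus strand: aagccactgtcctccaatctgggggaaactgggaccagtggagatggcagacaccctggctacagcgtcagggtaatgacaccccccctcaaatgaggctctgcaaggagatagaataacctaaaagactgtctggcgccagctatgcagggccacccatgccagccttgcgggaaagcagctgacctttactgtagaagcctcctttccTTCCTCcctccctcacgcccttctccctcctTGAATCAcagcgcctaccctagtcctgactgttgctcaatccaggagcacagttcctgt
GAGGAA was found 1 time in each of these windows, at 30 bases before the start in C1qb, while 28.3% of the 32851 promoters in the table held it on either strand. Among these windows TGANTCA was found in that of Trem2 only, as TGAATCA, which lacks the C or G of the AP-1 site. It was found in 7.81% of all promoters, with any base at N.

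The libraries differed in depth before any comparison. Fosl2F/F 1 gave 105 macrophages, Fosl2F/F 2 gave 641, Fosl2cKO 1 gave 249 and Fosl2cKO 2 gave 173. Their median UMIs were 9890, 2883, 11109 and 8855 in the same order, and Fosl2F/F 2 was also the shallowest library over the other cells, with a median of 3998 UMIs against 11417 to 13066. The summed macrophage UMIs were 1162342, 2965467, 3805472 and 1790909. Scrublet, which scores barcodes for the mixed profile of 2 cells, placed 26.5% of the macrophages of Fosl2F/F 2 among the cells it marked, against 5.62% to 6.36% in the other libraries. Over all barcodes that passed the filters it marked 19.5% in Fosl2F/F 2 and 5.74% to 7.03% in the others, since the share to be marked was set by the number of cells in the library. No macrophage barcode was shared between libraries, although 178 barcodes that passed the filters were.

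Fosl2 itself did not separate the groups in macrophages. Its level was 80.9 and 187 CPM (counts per 1e6 UMIs of the macrophages of a library) in Fosl2F/F 1 and 2 and 166 and 91.6 CPM in Fosl2cKO 1 and 2, so the groups overlapped. In the other cells it stood at 173, 245, 239 and 178 CPM in the same order. The counts are 3′ UMIs given per gene and not per exon, so they do not check the labels, and Fosl2cKO names a library by its label throughout.

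The markers of the rule stood far above the other cells in every library, which the rule itself produced and which is given as a description. C1qa stood at 3190 and 2184 CPM in Fosl2F/F and at 2130 and 3149 CPM in Fosl2cKO, against 5.46 to 13.9 CPM in the other cells. C1qb stood at 3070, 2296, 2289 and 2948 CPM in the same library order. Trem2 held 590, 411, 808 and 635 CPM, and Ctss held 2258, 1340, 3942 and 2559 CPM. The 8 markers summed to 9917 to 14666 CPM in macrophages, to 73.7 to 134 CPM in other cells and to 412 to 1084 CPM in the 476 barcodes chosen for dendritic cell genes. A cell carried a median of 65, 22, 90 and 77 C1q UMIs in the 4 libraries. All 8 markers were detected in 541 cells and exactly 4 in 54 cells, and 24 barcodes failed the rule only by having 3. A further 59 members held 3 or 4 C1q UMIs, and 104 barcodes just outside held 1 or 2. There were 34 members with 5 to under 10 UMIs of Inhba and Amh per 10000, and 9 barcodes outside with 10 to under 15. Of the 5 excluded markers, 1 was detected in 284 members, and 152 barcodes were left out for 2 or more alone.

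**Figure D1:**
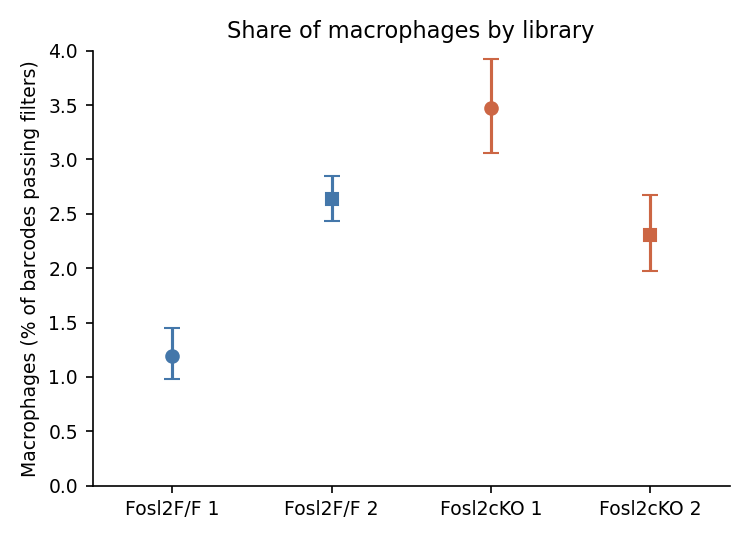
Share of macrophages among the barcodes that passed the filters, in percent, for each of the 4 libraries (blue, Fosl2F/F; orange, Fosl2cKO; bars, exact 95% binomial interval, counting error only). Fosl2F/F 1 is the lowest at 1.20% and Fosl2cKO 1 the highest at 3.47%, and the 2 groups overlap over all members.

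Macrophages made up 1.20% (exact Clopper-Pearson 95% interval 0.979 to 1.45) and 2.64% (2.44 to 2.84) of the barcodes in the Fosl2F/F libraries. They made up 3.47% (3.06 to 3.92) and 2.30% (1.98 to 2.67) in the libraries labelled Fosl2cKO. The means were 1.92% ± 1.02 (SD, n = 2) and 2.89% ± 0.824 (SD, n = 2), and the highest Fosl2F/F library lay above the lower of the others. The two-sided exact permutation test gave p = 0.667, where 2 against 2 libraries allow no p below 0.333. On cell numbers, edgeR gave a log2 ratio of 0.58 (SE 0.58, adjusted p = 0.526), so a difference in the share was not detectable. With at least 10 C1q UMIs in a member the shares were 1.09%, 2.07%, 3.07% and 2.13% in the same library order, and the groups did not overlap (exact permutation p = 0.333). This cut left 96 of 105, 504 of 641, 220 of 249 and 160 of 173 members, so it took most from the shallowest library. Nor did the groups overlap without the 220 members in clusters led by genes of other cells, described further on, at 1.10%, 1.92%, 3.11% and 2.13%. They did overlap with the barcodes marked by Scrublet removed (1.21%, 2.40%, 3.47% and 2.30%) and with over 2000 UMIs (1.23%, 2.50%, 3.44% and 2.32%). They also overlapped with hemoglobin under 0.1%, mitochondrial UMIs under 5% or no UMI of Inhba or Amh. Without Fosl2F/F replicate 1 the log2 ratio was 0.13 and without Fosl2F/F replicate 2 it was 1.27 (range over the 4 libraries left out in turn). Dissociation of whole ovaries sets which cells are caught, and the share of barcodes is not a density in the tissue.

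The defining genes of macrophages that the rule did not name were present in every library. Lyz2, which encodes lysozyme, stood at 7460 and 4969 CPM in Fosl2F/F and at 9697 and 6980 CPM in Fosl2cKO, against 51.7 to 116 CPM in other cells. Csf1r, the receptor for the growth factor that macrophages need to survive, held 232, 208, 194 and 312 CPM against 2.12 to 3.19 CPM. Adgre1, which encodes the surface protein F4/80, held 273, 223, 208 and 362 CPM against 1.15 to 2.60 CPM. Spi1, which encodes PU.1, held 368, 232, 306 and 368 CPM. Without the clusters led by genes of other cells Lyz2 held 8427, 8171, 12601 and 7997 CPM. In Fosl2F/F 2 Csf1r, Adgre1 and Spi1 then held 327, 348 and 368 CPM. All 18 identity genes of the list outside the rule could be tested between the groups, and 0 of them were called, where 0.0362% of all genes tested were.

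Flt3, Cd3e and S100a8 were at or near the detection limit. Flt3, a receptor of dendritic cells, reached at most 2.02 CPM, while the dendritic barcodes of the same libraries held 38.9 to 73.2 CPM. Cd3e of T cells had UMIs in Fosl2F/F 2 alone (3.03 CPM), and S100a8 of neutrophils reached at most 1.84 CPM. Not all genes of such lists were this low. The 7 neutrophil genes summed to 37.0, 30.7, 43.6 and 53.6 CPM, against 3.49 to 14.6 CPM in other cells. Csf3r held most of that sum. The 6 B cell genes summed to 55.1, 79.9, 89.9 and 145 CPM against 7.88 to 11.7 CPM, most of it in Ighm. The 10 T and NK genes summed to 2.58 to 29.7 CPM against 18.7 to 56.6 CPM. The 10 genes of the dendritic list summed to 83.5 to 125 CPM in macrophages and to 748 to 1024 CPM in the dendritic barcodes. Most of that sum in macrophages lay in Fscn1 (23.2 to 59.0 CPM), Naaa (27.3 to 41.9 CPM) and Zbtb46 (6.02 to 19.2 CPM). Genes of steroidogenic and granulosa cells were present, and unevenly. The 9 genes of the theca and luteal list summed to 735 and 4273 CPM in Fosl2F/F 1 and 2 and to 1925 and 483 CPM in Fosl2cKO 1 and 2. Without the clusters led by genes of other cells these sums were 306, 980, 290 and 247 CPM. The 12 granulosa genes summed to 1130 and 1481 CPM in Fosl2F/F and 992 and 960 CPM in Fosl2cKO, lower in the latter without overlap. In the other cells they summed to 4424 to 11653 CPM. Without the same clusters the sums in macrophages were 541 and 420 CPM in Fosl2F/F and 198 and 244 CPM in Fosl2cKO, again lower in the latter without overlap.

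By CPM, genes for antigen presentation stood far above their level in the bulk of the ovary and near that in dendritic barcodes. The dendritic barcodes also held RNA known from other ovarian cells, with 9 stromal genes summing to 1550 to 2934 CPM. H2-Aa, a chain of MHC class II, stood at 4840 and 3332 CPM in Fosl2F/F and 2911 and 4774 CPM in Fosl2cKO, against 71.8 to 102 CPM in other cells and 2534 to 5252 CPM in dendritic barcodes. Cd74, the invariant chain that guards the MHC class II groove, stood at 8143, 6658, 4521 and 6988 CPM. Without the clusters led by genes of other cells H2-Aa held 5432, 5431, 3667 and 5249 CPM and Cd74 held 9152, 10923, 5767 and 7688 CPM. The 10 genes of the MHC class II list then summed to 24131 and 26677 CPM in Fosl2F/F and to 16006 and 21946 CPM in Fosl2cKO, without overlap, whereas over all members the sums of 21459, 16410, 12658 and 19926 CPM overlapped. Over all members 14.3% of the genes tested were lower in Fosl2cKO without overlap. That share was not computed without those clusters. To set shares of positive cells on equal depth, each cell was thinned to 1000 UMIs, which every member had. H2-Aa then had a UMI in 79.0% and 81.7% of Fosl2F/F macrophages and in 75.1% and 76.3% of those labelled Fosl2cKO. The groups did not overlap (difference -4.70 percentage points, exact permutation p = 0.333, the smallest that can be reached). The share was 2.45% to 4.55% in other cells and 46.0% to 64.4% in dendritic barcodes, both thinned alike. In macrophages before thinning it was 90.2% to 93.6%.

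Genes known from long-lived tissue macrophages were divided between scarce and abundant ones. The 14 genes of the list summed to 1921, 2396, 2582 and 2751 CPM, against 460 to 795 CPM in other cells. Lyve1, a hyaluronan receptor of perivascular macrophages, had 2, 4, 3 and 1 UMIs in all in the 4 libraries, and its thinned share of 0% to 0.402% did not exceed the 0.1% to 0.5% in other cells. Timd4, a receptor for dying cells on resident macrophages, had 0, 1, 2 and 2 UMIs. Cd163, a scavenger receptor for hemoglobin, had 0 UMIs in Fosl2F/F 1, where 0 of 105 cells allows up to 2.86% of cells with a UMI (a limit on cells with a UMI and not on cells expressing the gene), and held 12.5, 4.73 and 7.82 CPM in the others. The folate receptor gene Folr2 held 12.9 to 26.8 CPM. Selenop, which encodes a selenium transport protein, stood at 792, 1146, 1345 and 1149 CPM against 77.5 to 104 CPM in other cells. The chemokine gene Pf4 held 465, 265, 266 and 380 CPM against 1.55 to 2.80 CPM. The scavenger receptor gene Stab1 held 151, 126, 145 and 245 CPM against 5.05 to 12.1 CPM. Mrc1, the mannose receptor, stood at 240, 309, 300 and 421 CPM, with thinned shares of 17.1%, 27.3%, 27.7% and 24.9%. Ccr2, the chemokine receptor of monocyte-derived cells, held 101, 106, 86.7 and 161 CPM with thinned shares of 11.4% to 14.5%. Of the 14 genes of the resident list 10 could be tested, and 0 were called (0.0362% over all genes).

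Lipid handling and iron storage genes stood above the other cells of the ovary. Apoe, which carries cholesterol out of the cell, stood at 23935, 18564, 18806 and 20718 CPM, against 256 to 335 CPM in other cells. Without the clusters led by genes of other cells it stood at 26995 and 31615 CPM in Fosl2F/F and at 24421 and 23428 CPM in Fosl2cKO, where the groups no longer overlapped. Abca1, a cholesterol export pump, held 623 and 639 CPM in Fosl2F/F and 955 and 987 CPM in Fosl2cKO, with no overlap. In that direction 15.6% of all genes tested did not overlap. Fth1, a ferritin chain that stores iron, stood at 18925 and 10208 CPM and at 36010 and 18922 CPM, and without those clusters at 20649 and 14850 CPM and at 46010 and 21438 CPM. Fabp5, a fatty acid carrier, stood at 3284 and 858 CPM and at 4851 and 2956 CPM. The protease genes Ctsd and Ctsb of the lysosome held 1890 to 4902 CPM and 2753 to 5021 CPM.

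Secreted products included chemokines and growth factors. Ccl4, which attracts lymphocytes and monocytes, stood at 816, 1413, 1402 and 2300 CPM against 31.1 to 37.3 CPM in other cells. Ccl3 held 454 to 851 CPM, and Cxcl2, which attracts neutrophils, held 1272 to 1793 CPM. Igf1, the growth factor that acts with FSH on granulosa cells, stood at 335 and 223 CPM in Fosl2F/F and 194 and 261 CPM in Fosl2cKO, against 88.8 to 102 CPM in other cells. Its thinned share was 23.8% and 19.8% in Fosl2F/F and 12.05% and 17.3% in the libraries labelled Fosl2cKO (difference -7.12 points, exact permutation p = 0.333), while the level by CPM overlapped between the groups. Without the clusters led by genes of other cells that level was 373 and 299 CPM in Fosl2F/F and 224 and 269 CPM in Fosl2cKO, with no overlap. Thinned to 2000 UMIs, the shares were 34.7%, 30.02%, 30.1% and 28.1%, and the groups overlapped (difference -3.22 points, exact permutation p = 0.667). Before thinning the share was 41.7% to 60.0%, and in other cells thinned alike it was 6.85% to 9.20%.

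Among hormone receptors, the glucocorticoid receptor gene Nr3c1 held 66.2 to 98.8 CPM. Esr1, an estrogen receptor, held 18.1, 103, 64.1 and 49.7 CPM, and was highest in Fosl2F/F 2. Without the clusters led by genes of other cells it held 11.4, 55.4, 26.4 and 39.6 CPM, still highest in Fosl2F/F 2. Pgr, the progesterone receptor, had at most 4 UMIs in a library. Prlr and Lhcgr, receptors of luteal and theca cells, were high in Fosl2F/F 2 (475 and 226 CPM) beside the theca and luteal genes of that library, and whether these UMIs came from macrophages was not tested. Without the clusters led by genes of other cells Prlr held 18.6, 56.1, 15.2 and 16.5 CPM and Lhcgr held 6.21, 46.2, 5.42 and 9.90 CPM, so both were still highest in Fosl2F/F 2.

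The macrophages were clustered by themselves to describe how they varied, which gave 8 clusters whose leading genes are a description, without a test. Clusters 6, 7 and 8 were led by genes of other ovarian cells, namely Kcnq5 and Bmpr1b, Col1a1 and Lama2, and Prlr and Cyp11a1. They held 220 barcodes, of which 173 came from Fosl2F/F 2, or 27.0% of its macrophages against 7.51% to 10.4% in the other libraries. Clusters 6, 7 and 8 were set apart as those in which Scrublet had marked most barcodes. Their marked shares of 81.5%, 88.9% and 81.9%, against 1.90% of the 948 barcodes outside them, follow from that choice. These shares are therefore no separate evidence of mixed profiles. In cluster 6 the marked share was 80% and 91.2% in Fosl2F/F 1 and 2 and 27.3% and 75% in Fosl2cKO 1 and 2. Leaving clusters 6, 7 and 8 out was a choice made after they had been seen. It was applied to the share of macrophages, the tests between the groups and the levels for which such values are printed. In Fosl2F/F 2, Selenop then stood at 1832 CPM, Mrc1 at 479 CPM and Ccl4 at 2317 CPM.

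Cluster 1 (242 cells) was led by Gpnmb, Mmp12, Atp6v0d2, Mgll and Fabp5. GPNMB is a glycoprotein of lysosomes and melanosomes, MMP12 is the elastase of macrophages, and ATP6V0D2 is a subunit of the proton pump that acidifies lysosomes. Beside its leading genes, cluster 1 held Apoe at 65779, 50676, 30916 and 38395 CPM in the 4 libraries, against 16174, 23562, 17391 and 15931 CPM in clusters 2 to 5. Trem2 held 1248, 1157, 1566 and 1323 CPM against 498, 464, 466 and 432 CPM. Lyz2, Ctsd, Lgals3 and Lpl were higher in the cluster in 4 of 4 libraries too. The cytokine gene Il1b went the other way, with 10.4 to 50.2 CPM inside and 259 to 577 CPM outside.

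Cluster 2 (70 cells) was led by Arg1, Spp1, Fn1 and Clec4e, and 33 of its cells came from Fosl2F/F 1, where they made 31.4% of the macrophages, against 0.936% in Fosl2F/F 2, 4.82% in Fosl2cKO 1 and 11.0% in Fosl2cKO 2. Arginase 1 and osteopontin, the products of Arg1 and Spp1, are known from macrophages of wounds. Fosl2F/F 2 gave 6 of its cells, with a median of 1629.5 UMIs, so the levels of that library within the cluster rest on few UMIs. Within the cluster Spp1 ranged from 387 CPM in Fosl2F/F 2 to 9733 CPM in Fosl2F/F 1, and Arg1 from 0 CPM in Fosl2F/F 2 and Fosl2cKO 2 to 1198 CPM in Fosl2F/F 1. Arg1 was therefore carried mainly by 1 library.

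Cluster 3 (75 cells) was led by Retnla, Ear2, Mgl2 and Tnip3. Its cells held more MHC class II RNA than clusters 1, 2, 4 and 5 in 4 of 4 libraries, with H2-Aa at 9780, 8451, 9096 and 9981 CPM against 4935, 5201, 3371 and 4755 CPM. They held little Apoe, from 40.4 CPM in Fosl2F/F 1 to 3774 CPM in Fosl2F/F 2, and Igf1 was detected in Fosl2F/F 2 alone, at 10.0 CPM. Their Trem2 level, 111 to 210 CPM, was also below that of the others, 711 to 1083 CPM. The 10 dendritic genes summed to 214 CPM in cluster 3, against 40.8 to 70.4 CPM in clusters 1, 2, 4 and 5.

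Cluster 4 (257 cells) was led by Ifih1, Ccl12, Gm4951, Ccl3, Bank1, Ccl4, Cxcl10, Ccl8, Fcrls and Vcam1. Ifih1 encodes a sensor of viral RNA, and Bank1 is known from B cells. The genes of the B cell list summed to 218 CPM in cluster 4 and 191 CPM in cluster 5, against 36.1 to 99.0 CPM in clusters 1 to 3. Cluster 4 held more C1qa, 4662 to 6391 CPM against 1977 to 3125 CPM in clusters 1, 2, 3 and 5. Mrc1 stood at 629, 734, 945 and 950 CPM in it against 186, 371, 192 and 325 CPM. Csf1r and Cx3cr1 were higher in it in 4 of 4 libraries. Cluster 5 (304 cells) was led by Plac8, Ccr2, Ms4a4c and Il1b, genes known from monocytes. Its Ccr2 level was 122, 350, 379 and 352 CPM, and its Il1b level was 32.2 CPM in Fosl2F/F 1 and 485 to 874 CPM in the other libraries. Over all libraries both genes were higher in cluster 3 (579 and 1130 CPM) than in cluster 5 (333 and 629 CPM).

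**Figure D2:**
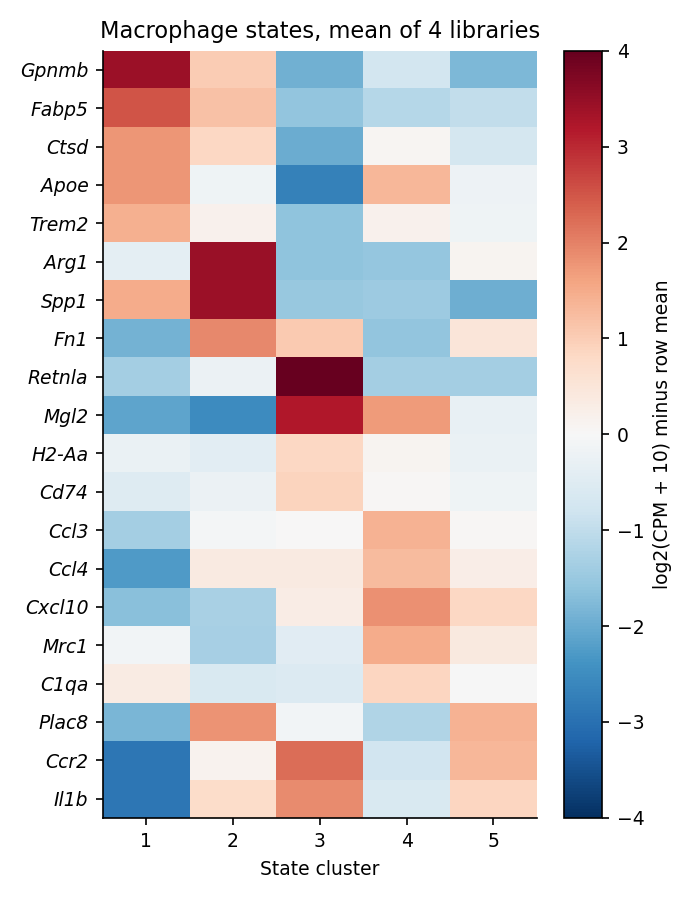
Levels of 20 genes (rows) in state clusters 1 to 5 (columns). CPM was averaged over the 4 libraries first, and log2(average + 10) is shown minus the mean of the row. The lipid and lysosome genes stand highest in cluster 1, Arg1 and Spp1 in cluster 2, Retnla and Mgl2 in cluster 3, and chemokines with Mrc1 in cluster 4. Plac8, Ccr2 and Il1b are above the row mean in cluster 5, with Ccr2 and Il1b higher still in cluster 3. The Plac8 average is higher in cluster 2, where 6 cells of Fosl2F/F 2 gave 871 CPM, against 30.4 to 95.6 CPM in the others. Over summed cells Plac8 held 59.6 CPM in cluster 2 and 207 CPM in cluster 5.

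**Figure D3:**
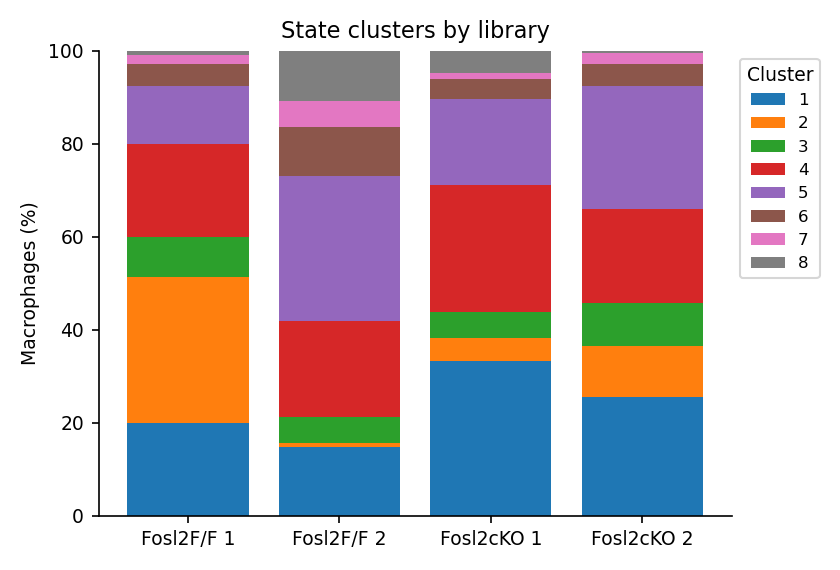
Percent of the macrophages of each library (bars) in each of the 8 state clusters (colours). Cluster 2 is widest in Fosl2F/F 1 at 31.4%, and clusters 6, 7 and 8 together are widest in Fosl2F/F 2 at 27.0%.

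Cluster 1 made up 20% and 14.7% of the macrophages in Fosl2F/F and 33.3% and 25.4% in Fosl2cKO. No size of a cluster was tested between the groups, since leading genes of cluster 1 themselves stood apart between them. The lipid-associated list, which includes some of those genes, had 13 genes tested, of which 0 were called and 1 had an unadjusted p under 0.05 in the direction of the libraries labelled Fosl2cKO (0.0362% called and 1.75% at that p over all genes).

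Between the groups, UMIs were summed over the macrophages of each library and tested in edgeR by quasi-likelihood. Of 11036 genes tested, 4 or 0.0362% passed, which needed a Benjamini-Hochberg adjusted p under 0.1 together with a log2 difference above 0.25. Plb1 rose in the libraries labelled Fosl2cKO, and the hemoglobin genes Hba-a1, Hba-a2 and Hbb-bs fell. Unadjusted p-values under 0.05 were found for 1.75% of the genes in the higher and 1.26% in the lower direction. The 2 groups did not overlap in 15.6% of the genes in the higher and in 14.3% in the lower direction. The median log2 fold change over the genes tested was -0.01.

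Plb1 encodes phospholipase B1, and lies at chr5:32232708-32366520, 74865 bases past the end of Fosl2 on the same strand with 0 protein-coding genes between. Macrophages held 0 and 2 UMIs of Plb1 in Fosl2F/F 1 and 2 and 303 and 44 UMIs in Fosl2cKO 1 and 2. Over the UMIs of each group the ratio was 128, with a counting interval of 35.2 to 1061 (exact, 95%), and edgeR gave an adjusted p of 0.0831. A single member of Fosl2F/F 2 held UMIs of the gene, against 45 and 28 cells in the other group. The 5 cells with the most UMIs held 77.6% of them in Fosl2cKO 1 and 40.9% in Fosl2cKO 2. Without clusters 6, 7 and 8 the UMIs were 0, 0, 45 and 23, and the call held (adjusted p = 0.0579). It was lost without Fosl2F/F replicate 1 (adjusted p = 0.213) and with the barcodes marked by Scrublet removed (adjusted p = 0.290). It was also lost with over 2000 UMIs (0.160), mitochondrial UMIs under 5% (0.124), hemoglobin under 0.1% (0.338), no UMI of Inhba or Amh (0.9996) or library size alone as the scaling (0.546), each an adjusted p in edgeR. With each cell thinned to 1000 UMIs, 4 of 3980 genes tested passed, namely Hbb-bs, Gpnmb, Sfrp4 and Scand1, and Plb1 was not among them. In the other cells of the same libraries Plb1 stood at 0.218 and 0.173 CPM in Fosl2F/F and at 351 and 330 CPM in Fosl2cKO on the TMM scale (trimmed mean of M-values, a library scaling). The macrophage levels on that scale were 0, 0.613, 80.0 and 24.7 CPM, and whether their UMIs came from macrophages or from RNA of the other cells was not tested.

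The hemoglobin UMIs sat in few barcodes. Hbb-bs had 69 and 662 UMIs in Fosl2F/F 1 and 2 and 5 and 3 UMIs in Fosl2cKO 1 and 2, and its ratio of Fosl2F/F over Fosl2cKO was 124 (counting interval 62.5 to 288, adjusted p = 0.0177 by edgeR). In Fosl2F/F 2, 5 cells held 99.4% of them, and in Fosl2F/F 1 they held 95.7%. Hba-a1 had 39, 177, 2 and 0 UMIs, and Hba-a2 had 36, 137, 1 and 0, and the split between these near-identical copies is uncertain. With cells kept only under 0.1% hemoglobin UMIs, the limit stated in the methods, which removed 5 macrophages of Fosl2F/F, 0 genes passed the threshold, and 329 had an unadjusted p under 0.05.

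The genes named by rank below the threshold are given as values. Scand1 held 24.2 and 41.1 CPM (TMM-scaled, as for the levels that follow) in Fosl2F/F and 135 and 177 CPM in Fosl2cKO, a log2 difference of 2.22 (SE 0.38, adjusted p = 0.298). In the other cells its difference was 2.21, and for Tmem160 the differences were 2.49 and 2.28 in macrophages and other cells. Akr1c18, the enzyme that inactivates progesterone in luteal cells, held 19.4, 204, 5.01 and 0 CPM, and 18.6, 19.2, 1.08 and 0 CPM unscaled without the clusters led by genes of other cells, with -5.20 in macrophages and -5.46 in other cells. Nupr1, a stress response gene, held 74.5, 111, 24.0 and 21.3 CPM, with -2.04 and -1.51. These genes therefore stood apart in macrophages and in the rest of the ovary in the same direction. Without those clusters Akr1c18 (adjusted p = 0.0579), Scand1 and Tmem267 passed the threshold in edgeR.

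Mfge8, Tmem267 and Tmtc1 had differences that were near 0 in the other cells. Mfge8 encodes a bridge protein that links dying cells to the phagocyte, and lies at chr7:79133768-79149060 on the minus strand. It held 24.2 and 29.1 CPM in Fosl2F/F and 141 and 109 CPM in Fosl2cKO, a log2 difference of 2.21 (SE 0.35, adjusted p = 0.217), while the other cells held 94.5 to 123 CPM and differed by -0.12. Tmem267 differed by 2.12 in macrophages and -0.18 in other cells, and Tmtc1 by -1.72 and -0.05. Without clusters 6, 7 and 8 Tmtc1 held 2.07 and 7.101 CPM in Fosl2F/F and 2.89 and 6.602 CPM in Fosl2cKO, where the groups overlapped. With the barcodes marked by Scrublet removed its log2 difference was -0.13. Whether RNA of other cells carried the difference of Tmtc1 was not tested. The difference between the 2 effects, tested as an interaction with the library as a term, was 2.28 for Mfge8 (SE 0.34, unadjusted p = 0.000495, adjusted p = 0.999996 in edgeR). Over the same 11036 genes 0 passed this test (0%), and 233 had an unadjusted p under 0.05.

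Without clusters 6, 7 and 8, Mfge8 passed both tests. The log2 difference in macrophages was then 3.23 (adjusted p = 0.0151), with 12 genes past the threshold, 7 higher and 5 lower, of 9089 tested, and Mfge8 and S100a1 passed the test of the difference from other cells. The UMIs of Mfge8 were 11 and 24 in Fosl2F/F and 441 and 178 in Fosl2cKO among these 948 barcodes. The 5 cells with the most UMIs held 55.1% and 80.4% of all Mfge8 UMIs in the macrophages of Fosl2cKO 1 and 2. Over members chosen in other ways, Mfge8 passed between the groups with marked doublets removed and with at least 10 C1q UMIs. It also passed in DESeq2, without a filter on low counts and with the crossed pairing. It did not pass with over 2000 UMIs, mitochondrial UMIs under 5%, hemoglobin under 0.1%, no UMI of Inhba or Amh or cells thinned to 1000 UMIs. Nor did it pass with library size alone as the scaling or the replicate number as a block.

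Mfge8 stood higher in cluster 1 than in clusters 2 to 5 in 4 of 4 libraries. The level in cluster 1 was 14.2 and 28.7 CPM in Fosl2F/F and 298 and 334 CPM in Fosl2cKO, and in clusters 2 to 5 it was 8.92 to 12.1 CPM in the 4 libraries. In Fosl2F/F 1 and 2 the levels rest on 11 and 24 UMIs over clusters 1 to 5, so the order is uncertain there. Gpnmb, the first of the leading genes of the cluster, showed the same arrangement, with 963, 641, 4346 and 2386 CPM inside and 103 to 155 CPM outside. The clusters were drawn from these same counts, so levels inside and outside them are a description and no test. Plb1 was not arranged in this way, with 17.4 and 13.8 CPM inside cluster 1 and 15.1 and 15.9 CPM in clusters 2 to 5 in the libraries labelled Fosl2cKO.

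**Figure D4:**
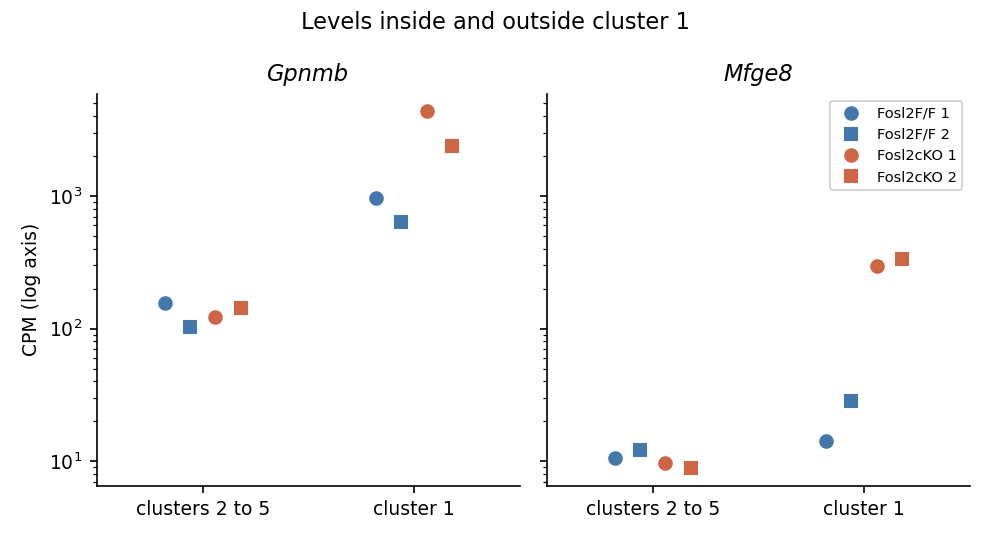
Levels of Gpnmb and Mfge8 in CPM (log axis) in the macrophages of cluster 1 and of clusters 2 to 5, with 1 point for each library. Outside cluster 1 the 4 libraries lie within 103 to 155 CPM for Gpnmb and 8.92 to 12.1 CPM for Mfge8, and inside it the Fosl2cKO points lie above both Fosl2F/F points.

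Promoter windows of Gpnmb and Mfge8 are shown since both genes stood apart inside the same cluster, with the same marks as above.
Gpnmb, chr6:49036268-49036567, plus strand: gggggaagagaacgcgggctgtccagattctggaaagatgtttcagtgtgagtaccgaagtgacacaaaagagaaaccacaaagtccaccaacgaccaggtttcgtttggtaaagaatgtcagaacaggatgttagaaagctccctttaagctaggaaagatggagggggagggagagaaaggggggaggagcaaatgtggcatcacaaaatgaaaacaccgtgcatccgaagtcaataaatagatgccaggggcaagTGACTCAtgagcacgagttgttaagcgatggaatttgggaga
Mfge8, chr7:79149011-79149310, minus strand: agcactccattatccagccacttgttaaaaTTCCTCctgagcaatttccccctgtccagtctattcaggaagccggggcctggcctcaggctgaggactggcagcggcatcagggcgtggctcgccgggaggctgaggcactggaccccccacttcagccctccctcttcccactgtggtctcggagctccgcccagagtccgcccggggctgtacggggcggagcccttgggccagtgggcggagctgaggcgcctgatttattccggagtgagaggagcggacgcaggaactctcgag
The Gpnmb window held TGANTCA once and GAGGAA not at all, and the Mfge8 window held GAGGAA once and TGANTCA not at all.

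Gpnmb, at chr6:49036546-49070929 on the plus strand, held 315 and 146 CPM in Fosl2F/F macrophages and 1757 and 759 CPM in Fosl2cKO, a log2 difference of 2.46 (SE 0.54, adjusted p = 0.545). The 5 cells with the most UMIs held 43.9% and 26.5% of its UMIs in Fosl2F/F 1 and 2 and 21.1% and 50.7% in Fosl2cKO 1 and 2. Gpnmb did not pass in edgeR, although both libraries labelled Fosl2cKO were above both others. It did pass in DESeq2 (adjusted p = 0.000671), with cells thinned to 1000 UMIs (adjusted p = 0.0385 in edgeR) and without a filter on low counts (adjusted p = 1.1e-05 in edgeR). After thinning it had a UMI in 13.3% and 7.80% of cells against 30.9% and 17.3% (difference 13.6 points, exact permutation p = 0.333). Before thinning the shares were 18.6% to 42.6% and the groups overlapped. In the other cells its share was 0.15% to 0.70%, with a log2 difference of 2.42 at levels of 1.80 to 17.5 CPM. Mmp12 followed with 236, 75.5, 950 and 432 CPM (2.17, adjusted p = 0.9998 in edgeR), and passed in DESeq2 (adjusted p = 0.027) and without a filter on low counts (adjusted p = 7.71e-05 in edgeR).

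Of the 20 lists of macrophage genes, 0 held a gene past the threshold. Growth factors and matrix genes had the most members at an unadjusted p under 0.05, with 5 of 16 tested, all higher in the libraries labelled Fosl2cKO (1.75% over all genes), and 7 of 16 without overlap in that direction (15.6%). These 5 were Mmp12, Mmp19, Timp2, Vegfa and Pdgfa. Mmp19, a matrix protease, held 9.68, 13.2, 47.5 and 43.2 CPM (log2 difference 1.94, adjusted p = 0.298). Vegfa, the growth factor for vessels, held 40.6, 57.7, 84.2 and 99.9 CPM (0.88), Pdgfa held 34.8, 29.8, 59.4 and 52.8 CPM (0.81), and the protease inhibitor Timp2 held 87.1, 77.6, 125 and 209 CPM (1.02). The median log2 difference of the list was 0.38. The lists were chosen with earlier results of these data known, so counts of their members are a description and no independent test. In the other cells the 16 genes summed to 436 and 502 CPM in Fosl2F/F and 561 and 547 CPM in Fosl2cKO, also without overlap. Mmp12, Mmp19, Timp2 and Pdgfa stood highest in cluster 1 (1703, 89.8, 218 and 85.1 CPM), and Vegfa in cluster 3 (122 CPM).

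The list of cytokines, chemokines and NF-kB genes had 2 of 26 at an unadjusted p under 0.05, Cxcl1 (0.77) and Ptgs2 (1.07), and 8 of 26 without overlap in the higher direction, with a median of 0.36 (1.75% and 15.6% over all genes). The summed level of that list overlapped between the groups over all members (8913, 7647, 7899 and 10205 CPM). Without clusters 6, 7 and 8 the sums overlapped too (9659, 11656, 9626 and 11249 CPM), and the count of 8 was not repeated there. Interferon response genes had Rsad2 (33.9, 34.0, 93.7 and 146 CPM, log2 difference 1.82) and Ifit2 (1.54) among 14 tested, with a median of -0.03, and without clusters 6, 7 and 8 the groups overlapped in Ifit2 (7.24, 52.5, 42.3 and 107 CPM). Monocyte-derived genes had 2 of 9 lower, S100a4 (454, 73.0, 81.8 and 70.7 CPM, -1.77) and S100a6 (821, 373, 200 and 154 CPM, -1.75), with a median of -0.58 (1.26% of all genes were lower at that p). The S100a4 difference rested on Fosl2F/F 1 and became 0.085 without it. The lysosome list had Lamp1 alone among 22 (452, 261, 634 and 859 CPM, 1.07), and the list of clearance of dying cells had Mfge8 alone among 13.

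Lists with no member at an unadjusted p under 0.05 were the rule markers (8 tested), identity outside the rule (18), MHC class II (10), resident genes (10), iron and heme (9) and immune receptors (21). Single members were below it in the lists of complement (C3, -1.08), cholesterol (Scarb1, -1.52), hormone receptors (Lhcgr, -2.33), proliferation (Tyms, -0.84), AP-1 (Jund, 1.54), immediate early genes (Dusp1, 0.90) and macrophage transcription factors (Klf2, 1.45). Jund held 171, 199, 219 and 866 CPM and Klf2 held 62.9, 52.1, 58.6 and 255 CPM, so that 1 library carried both differences, which were 0.25 and 0.042 without Fosl2cKO replicate 2. In the other cells they were 1.77 and 1.56. Without clusters 6, 7 and 8 the groups overlapped in Scarb1 (42.4, 151, 48.8 and 44.9 CPM) and in Lhcgr. Spp1, the osteopontin gene, held 3905, 186, 558 and 940 CPM (-1.45, adjusted p = 0.9998) and was at 2.02 without Fosl2F/F replicate 1.

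Of the genes of other ovarian cells 0 were called in the macrophage sums, apart from those of red cells. The median log2 difference was -1.61 over 4 oocyte genes tested, -1.40 over 8 endothelial, -1.39 over 5 epithelial, -1.25 over 8 theca and luteal, -0.91 over 9 stromal, -0.57 over 4 pericyte and smooth muscle, -0.34 over 12 granulosa and -0.016 over 5 dendritic genes. It was 0.77 over 2 T and NK cell genes, 0.65 over 2 B cell genes and 0.55 for 1 neutrophil gene. Lower without overlap were 2 of the oocyte, 5 of the endothelial, 1 of the epithelial, 4 of the theca and luteal, 3 of the stromal, 2 of the pericyte and 6 of the granulosa genes, against 14.3% of all genes. The summed levels of the theca and luteal list and of the stromal list (228, 426, 234 and 209 CPM) overlapped between the groups. Those of the granulosa (1130, 1481, 992 and 960 CPM), endothelial (59.4, 72.5, 34.2 and 45.2 CPM) and pericyte lists (89.5, 140, 86.2 and 68.7 CPM) were lower in Fosl2cKO without overlap. Those of the B cell and neutrophil lists were higher without overlap. The part of genes of other cells in the differences given above was not tested, beyond the values without clusters 6, 7 and 8.

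**Figure D5:**
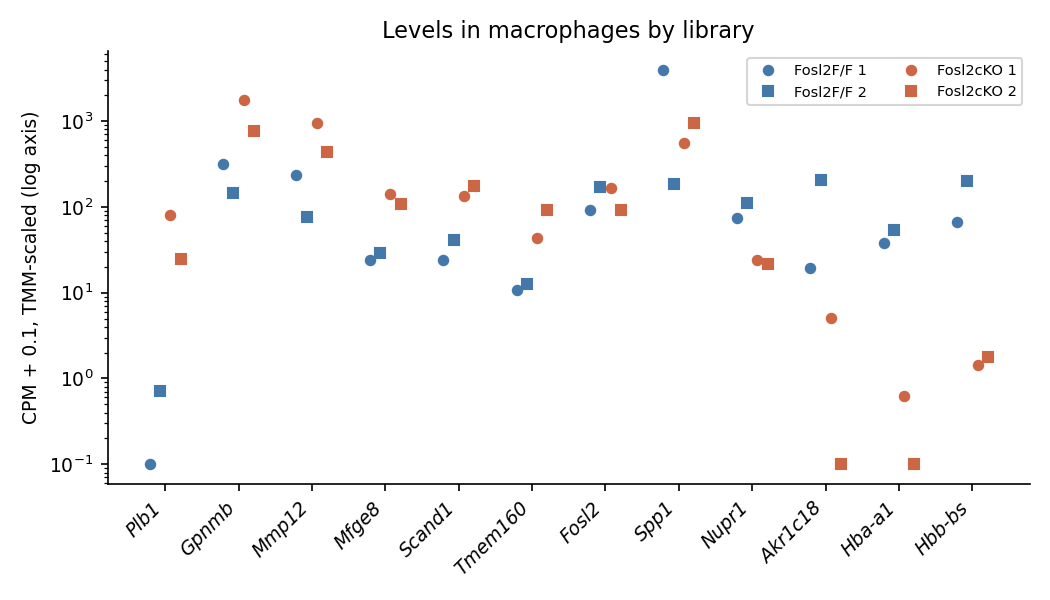
TMM-scaled CPM + 0.1 (log axis) of 12 genes in the summed macrophages, with 1 point for each library. Plb1, Gpnmb, Mmp12, Mfge8, Scand1 and Tmem160 lie higher in both libraries labelled Fosl2cKO, Nupr1, Akr1c18 and the hemoglobin genes lie lower, and Fosl2 and Spp1 overlap.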

How the data were processed

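Ovaries were dissociated and loaded on the 10x Genomics 3′ v3 kit, and all samples were handled in parallel. The authors aligned reads to GRCm38 with CellRanger and kept uniquely mapped reads. The deposited matrices give, for 32285 genes, whole UMI counts in each barcode that had not been normalized. The methods also name CellBender for removal of background RNA, and whether it was applied to these counts was not given in the sources used here. Per the labels' processing notes, Cell Ranger and Seurat 4.1.0 were used. All 4 libraries were used.

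The members and the gene lists were chosen with earlier results of these data known, and the members were selected on measured values, so macrophages against other cells were not tested. Counts were summed per library, genes were kept by filterByExpr, and libraries were scaled by TMM (edgeR 4.0.16, R 4.3.3, glmQLFit and glmQLFTest, Benjamini-Hochberg adjustment). A call needed an adjusted p under 0.1 with a log2 difference above 0.25. Cell numbers were tested in edgeR against all other barcodes passing the filters, and adjusted over those 2 rows. Cells were thinned to 1000 UMIs with a fixed seed for shares with a UMI, and 2000 other cells of each library were thinned alike. State clusters came from scanpy 1.11.5 (20 components, 15 neighbours, Leiden resolution 0.5), with genes centred within each library. Doublets were not removed in the reported values. Scrublet in scanpy ranked cells within each library, and the highest 0.8% per 1000 cells were marked. Dendritic barcodes carried at least 2 of 6 dendritic genes. Named genes are those of the lists, the 5 genes of largest change in each direction that averaged 20 CPM or more without overlap (filled by smallest p), and the leading genes of each cluster. Coordinates are from GENCODE M21 and promoters from RefSeq. Intervals cover counting error only. On simulated counts with 200 changed genes, the test of macrophages recovered 1.5% of 2-fold changes (11007 genes tested) and 78% of 4-fold changes (11022 genes tested, 19 false calls). Some genes of the lists are not reported here.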

Additional observations from a re-analysis of the deposited data

How the results depend on the processing

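Few simulated 2-fold changes were recovered, and which of depth, spread and the number of libraries limits this was not tested. The number of genes past the threshold in macrophages, 4 as reported, was 0 with hemoglobin under 0.1%, 0 without any Inhba or Amh UMI (193 at an unadjusted p under 0.05), 0 with library size alone as the scaling (260), 12 without the clusters led by genes of other cells, 21 with DESeq2 1.42.0 and 127 of 19923 genes without a filter on low counts. It ranged from 10 to 142 when 1 library was left out, with 10 without Fosl2F/F replicate 1, 142 without Fosl2F/F replicate 2, 47 without Fosl2cKO replicate 1 and 16 without Fosl2cKO replicate 2, and stood at 3 to 5 with marked doublets removed, over 2000 UMIs, mitochondrial UMIs under 5%, at least 10 C1q UMIs, cells thinned to 1000 UMIs, or an adjusted p under 0.05 with no minimum fold. The cause of these changes was not tested.

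The replicate numbers were not used to pair the libraries in the reported values. Deviations from the group means correlated at -0.243 by replicate number. With 2 libraries per group both numbers must give the same value, so it cannot decide whether the libraries were paired. With the replicate number as a block 5 genes passed and the log2 ratio of cell numbers was 0.66, and with the crossed pairing, added after the data had been seen, 85 genes passed and the log2 ratio was 0.55. The log2 ratio was 0.13 to 1.27 with 1 library left out and 0.77 without the clusters led by genes of other cells, and it passed under no alternative run.

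For the difference from other cells, 2 genes passed without those clusters and 52 of 19923 without a filter on low counts, against 0 under every other alternative run and 0 to 0 with a library left out. Leiden resolutions of 0.3 and 0.8 gave 6 and 15 clusters. Among shares with a UMI, 38 of 42 alternatives kept their direction, and the difference turned for Lyve1 (-0.385), Ccr2 (-0.594) and Apoe (-0.181) at 2000 UMIs and for Cd163 (0.101) with at least 10 C1q UMIs. The log2 difference of Fosl2 was 0.077 without marked doublets, 0.046 without any Inhba or Amh UMI, 0.12 without those clusters, 0.011 without a filter, and -0.53 to 0.50 with a library left out (0.50 without Fosl2F/F replicate 2 and 0.36 without Fosl2cKO replicate 2). S100a4 ranged from -2.59 to 0.085 and Spp1 from -2.40 to 2.02, with both positive without Fosl2F/F replicate 1 and both past the threshold without Fosl2F/F replicate 2. Over 29 named genes and 477 alternatives, 392 kept direction and side of the threshold, 65 passed newly, 12 no longer passed and 8 turned.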

Other observations

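Genes of other states of activation or growth, in macrophages thinned to 1000 UMIs, were read as shares of cells with a UMI. Mki67, a marker of dividing cells, had a UMI in 0%, 4.37%, 2.41% and 2.89% of the macrophages of Fosl2F/F 1, Fosl2F/F 2, Fosl2cKO 1 and Fosl2cKO 2, against 2.55% to 4.35% of the other cells. Cx3cr1, the fractalkine receptor, had a UMI in 2.86%, 16.1%, 14.5% and 18.5% of macrophages and in 0.65% to 1.05% of other cells, so that Fosl2F/F 1 stood apart from the other libraries. Spp1 had one in 37.1%, 8.42%, 19.7% and 18.5% of macrophages, with Fosl2F/F 1 again apart, on the high side. Il1b had one in 8.57%, 17.0%, 15.3% and 15.6%. Before thinning these shares were 10.3% to 15.7% for Mki67, 36.7% to 63.0% for Cx3cr1, 16.2% to 60.0% for Spp1 and 15.2% to 34.7% for Il1b. For each of these genes the groups overlapped.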
